A study of Homo sapiens with 4 samples.

Results

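Chromosomes 5 and 6 are the 2 autosomes with the densest EZH2 calls in this study, and all peaks on them are described here by arm and by 5 Mb window. They were chosen by the covered length of the deposited EZH2 peaks, that is, by the measure reported below, so their rank among chromosomes is a description and carries no test. They held 6461 of 31077 peaks in the H3.1-WT list (2739 on chromosome 5 and 3722 on chromosome 6) and 7225 of 35016 in the H3.1-K27M list (3402 and 3823), or 13686 of 66093 in all. The cells were HEK293, an established line from human embryonic kidney, infected with a lentivirus, selected with G418 and induced with doxycycline at 1 µg/ml to express histone H3.1, either H3.1-WT or H3.1-K27M. The added histone came on top of the cells' own H3 genes, and induction and infection were common to all groups. EZH2 was mapped by CUT&RUN on 200000 cells per reaction, in which an antibody guides a nuclease to its target so that bound DNA is cut out and sequenced, and a reaction with the secondary antibody (anti-rabbit HRP) alone was the negative control. Each of the 4 groups was 1 library, so differences between genotypes have no replicate check. The peak lists hold no read counts, and depth is unknown. The titles of the H3.1-K27M libraries read H31, and the mutation was taken from their genotype label.

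EZH2 is the enzyme of Polycomb repressive complex 2, which places methyl groups on lysine 27 of histone H3 at silent genes. It binds most strongly at CpG-rich promoters of developmental regulators and more thinly over wide silent domains. In K27M the methylated lysine is a methionine, a change found in childhood midline gliomas that lowers this methylation across most of the genome.

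Both chromosomes were more densely covered than every other autosome in both genotypes. With H3.1-WT, peaks took up 17.0 kb per Mb on chromosome 5 and 25.25 on chromosome 6. The other 20 autosomes lay between 5.18 and 15.9 kb per Mb there, with chromosome 19 the highest and a median of 11.2. In H3.1-K27M chromosome 5 had 23.4 kb per Mb and chromosome 6 had 31.2, against 4.14 to 17.1 on the other 20, with chromosome 11 the highest and a median of 9.59. Set against the median of the 22 autosomes, chromosome 5 was 1.49 times as covered in H3.1-WT and 2.24 times in H3.1-K27M, and chromosome 6 was 2.21 and 2.98 times as covered. With only peaks of a −log10 q of 5 or more, the values were lower in both lists. They were then 1.16 on chromosome 5 and 1.54 on chromosome 6 in H3.1-WT, and 1.21 and 1.31 in H3.1-K27M.

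The high density did not belong to whole chromosomes alike, and 5p and 6q carried it in both genotypes. Arm 6p lay above every listed arm of other autosomes in H3.1-WT only, and 5q lay within the range of other arms. Among the 39 autosomal arms with at least 50 H3.1-WT peaks, 6q ranked first in H3.1-WT with 27.6 kb per Mb, 5p second with 26.7 and 6p next with 20.9. The 35 arms of other autosomes ended at 19.3 kb per Mb, on 19q. Arm 5q ranked 15 of 39 with 13.5 kb per Mb, above the median of 11.3 for those 35 arms. In H3.1-K27M 5p ranked first with 43.8 kb per Mb and 6q second with 37.7, while 6p ranked 5 with 19.5 and 5q ranked 10 with 15.998, among other arms that reached 20.8 on 9p. The short arm of chromosome 5 was thus 1.98 times as covered as its long arm in H3.1-WT and 2.74 times in H3.1-K27M. On chromosome 6 the order was the other way, with a p over q ratio of 0.757 with H3.1-WT and 0.518 with H3.1-K27M.

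**Figure D1:**
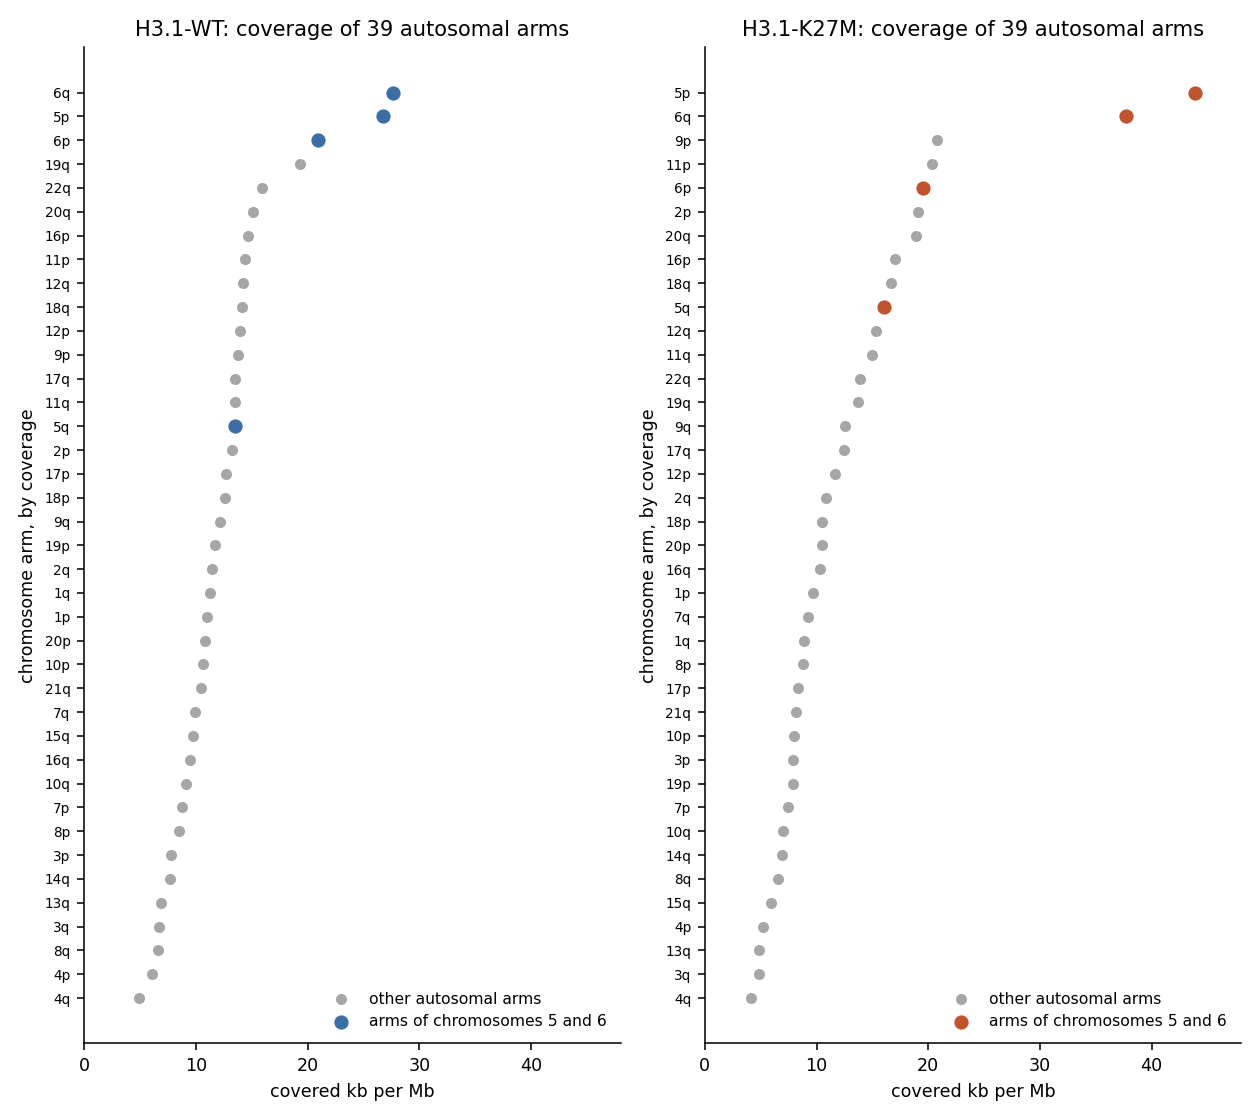
Covered kb per Mb (horizontal axis) of the 39 autosomal chromosome arms, ordered by coverage, in the H3.1-WT list (left) and the H3.1-K27M list (right). Coloured points are 5p, 5q, 6p and 6q, grey points the other 35 arms, and each point is 1 arm in 1 list with no replicate. Arms 5p and 6q stand apart at the top in both lists, while 5q lies among the grey points.

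Windows of 5 Mb, split at the border of the arms, showed where within each arm the coverage lay. A window was called dense when its covered length per Mb reached 1.5 times the median of all 578 autosomal windows of the same list, that is 14.9 kb per Mb with H3.1-WT and 10.6 with H3.1-K27M. Of the 70 windows on chromosomes 5 and 6, 47 were dense with H3.1-WT (67.1%) and 44 with H3.1-K27M (62.9%), beside 24.9% and 36.0% of all autosomal windows. Since covered length chose the chromosomes, nothing is read from these shares. The H3.1-WT windows nearest the limit were 15.31 and 15.4 kb per Mb inside it and 14.7 and 14.7 outside it, and the H3.1-K27M windows 10.9 and 11.0 inside and 10.2 and 9.93 outside.

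On 5p the coverage was high over most of the arm. All 7 adjoining windows from the tip to 35 Mb were dense in both lists, at 29.3 kb per Mb together with H3.1-WT and 51.2 with H3.1-K27M. The peak of the arm lay at 15 to 25 Mb, in bands 5p15.1 to 5p14.1: the window from 15 to 20 Mb had 42.7 kb per Mb with H3.1-WT and 65.2 with H3.1-K27M, and the window from 20 to 25 Mb had 40.7 and 92.9. A gap followed at 35 to 40 Mb, with 13.3 and 9.43 kb per Mb. Coverage was again high at 40 to 45 Mb, with 35.8 and 48.3 kb per Mb, before the window that ends in the centromere (45 to 48.4 Mb, 5.98 and 12.2). Of that last window, 2.3 Mb is the centromeric band 5p11, which held 0 peaks in both lists. On 5p, 8 of 10 windows were dense in H3.1-WT and 9 of 10 in H3.1-K27M.

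The long arm of chromosome 5 was below the dense limit over most of its length, with separate dense blocks. Even so, 20 of its windows lay above the autosomal median window with H3.1-WT and 18 with H3.1-K27M. Of its 26 windows, 9 were dense with H3.1-WT and 12 with H3.1-K27M, and 8 were dense in both lists. The first run was dense from 50 to 65 Mb in H3.1-K27M, at 12.9 kb per Mb. In H3.1-WT that run was dense to 60 Mb, at 16.8 kb per Mb. From 65 to 110 Mb the 9 windows lay between 6.15 and 15.4 kb per Mb with H3.1-WT and between 1.38 and 10.2 with H3.1-K27M. Another block began at 110 Mb, where the first window had 19.9 kb per Mb with H3.1-WT and 39.3 with H3.1-K27M. It ran to 125 Mb in the H3.1-K27M list. A further block, dense from 140 to 170 Mb in H3.1-K27M, had its highest window at 160 to 165 Mb in band 5q34. That window had 77.0 kb per Mb against 21.31 in H3.1-WT, a ratio of 3.61. Within the same block the window from 140 to 145 Mb was the highest of 5q in H3.1-WT, with 28.1 kb per Mb, and had 23.9 in H3.1-K27M. This window holds most of 5q31.3, the band of the clustered protocadherin genes, which encode neuronal cell adhesion proteins. The last 2 full windows of the arm were below the dense limit in both lists. They had 10.8 and 8.32 kb per Mb with H3.1-WT and 4.98 and 2.71 in H3.1-K27M.

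On 6p H3.1-K27M had the lower coverage in most windows up to 45 Mb and the higher coverage over the block next to the centromere. From the tip to 45 Mb the 9 windows lay between 12.2 and 25.6 kb per Mb with H3.1-WT, and 6 of them were dense. In H3.1-K27M the same 9 windows lay between 3.40 and 22.4 kb per Mb, and 3 were dense. The window from 25 to 30 Mb, which holds bands 6p22.2 and most of 6p22.1 with the large histone gene cluster, had 25.6 kb per Mb with H3.1-WT and 6.86 with H3.1-K27M. The window from 40 to 45 Mb had 14.5 and 3.68, a ratio of 0.253 that was the lowest of the arm. The 3 windows from 45 to 60 Mb formed a dense block in both lists, at 30.8 kb per Mb with H3.1-WT and 52.9 with H3.1-K27M, and the window from 50 to 55 Mb reached 33.1 and 84.1.

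The long arm of chromosome 6 was dense nearly from end to end in H3.1-WT and in blocks in H3.1-K27M. In H3.1-WT 21 adjoining windows from 61 to 165 Mb were dense, and only the last full window, at 14.7 kb per Mb, fell short of the limit. In H3.1-K27M 17 of the 22 windows were dense, in runs from 61 to 105 Mb, 115 to 125 Mb and 140 to 170 Mb. The first of these runs had 61.8 kb per Mb over 44 Mb, and its highest window, from 65 to 70 Mb in band 6q12, had 137 kb per Mb against 49.9 in H3.1-WT. That window was the most covered on chromosomes 5 and 6 in both lists. Between the runs coverage fell below the dense limit, with 8.54 and 6.83 kb per Mb at 105 to 115 Mb and 7.86, 5.94 and 7.97 at 125 to 140 Mb. The same 5 windows had 19.1 to 22.5 kb per Mb in H3.1-WT and were all dense there.

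Chromosome 6 was raised throughout in H3.1-WT. All 34 of its windows lay above the autosomal median window in H3.1-WT, the lowest at 12.2 kb per Mb against a median of 9.91. In H3.1-K27M 27 of the 34 did, with a median of 7.09. On chromosome 5 the numbers were 29 and 28 of 36 windows.

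**Figure D2:**
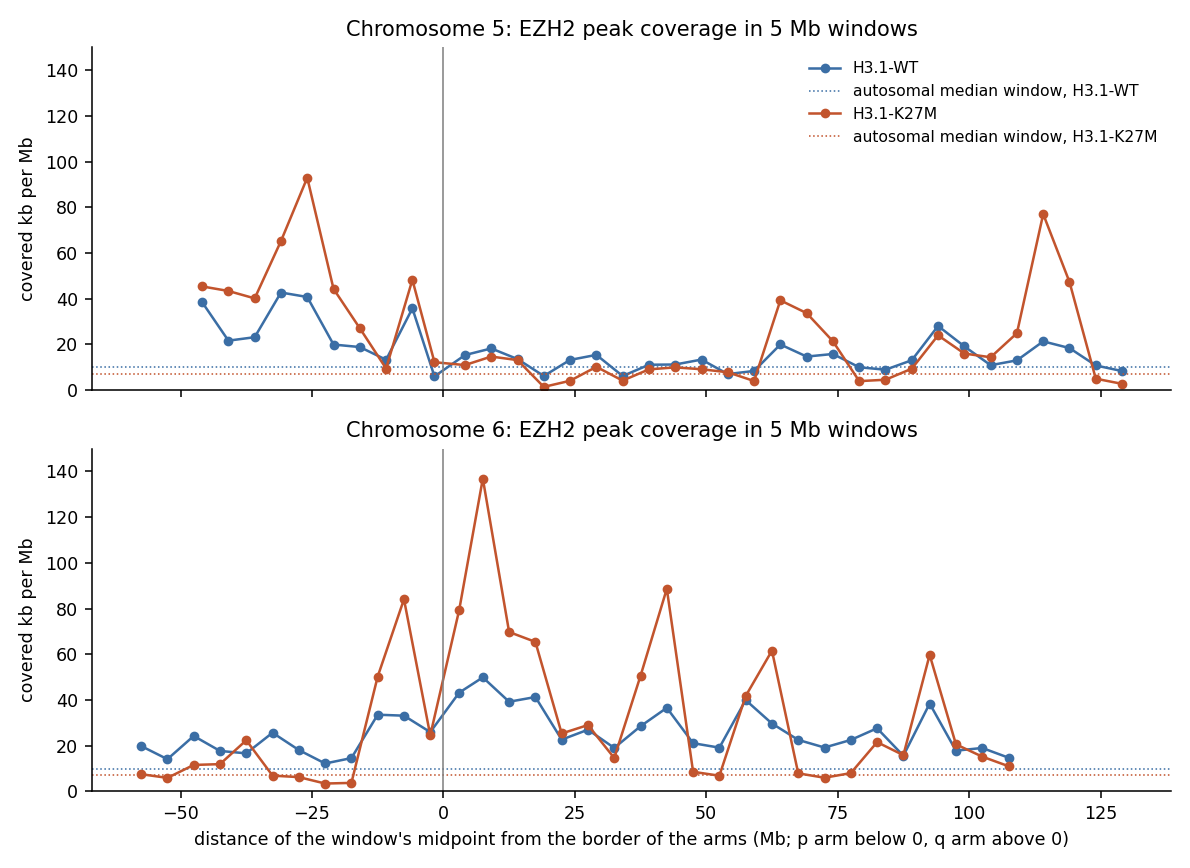
Covered kb per Mb (vertical axis) in 5 Mb windows along chromosome 5 (top) and chromosome 6 (bottom), by distance of the window's midpoint from the border of the arms in Mb. Blue is the H3.1-WT list and orange the H3.1-K27M list, 1 library each, and dotted lines are the autosomal median windows, 9.91 and 7.09 kb per Mb. The blue profile stays above its median along all of chromosome 6, while the orange profile rises in blocks up to 137 kb per Mb and falls between them to as low as 3.40 on 6p.

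Most of the variance between windows lay within arms in both lists. On the scale of log2(kb per Mb + 1), differences between the 4 arms held 38.96% of the variance over the 70 windows with H3.1-WT and 22.3% with H3.1-K27M. Within chromosome 5 the difference between its arms held 26.9% and 28.9%, and within chromosome 6 it held 11.5% and 12.8%. The other 20 autosomes had medians of 4.83% and 4.97%, and ran up to 93.5% on chromosome 14 and 65.9% on chromosome 22, whose short arms had no peaks.

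A single step per arm held a share of the variance within the range of the other 20 autosomes in both lists. With 1 step at its best place in each arm, the share rose to 51.7% on chromosome 5 and 54.3% on chromosome 6 in H3.1-WT, against a median of 70.8% on the other 20 autosomes. In H3.1-K27M it rose to 46.1% and 55.7%, against a median of 47.7%. The best step of 6p lay at 45 Mb in both lists, from a mean of 18.1 to 30.8 kb per Mb in H3.1-WT and from 8.81 to 52.9 in H3.1-K27M. The best step of 5q lay at 110 Mb in both lists but held 12.5% and 18.0% of that arm's variance. On 6q it lay at 80 Mb in H3.1-WT and 105 Mb in H3.1-K27M, and on 5p at 45 Mb in H3.1-WT and 30 Mb in H3.1-K27M. The step at 45 Mb on 5p sets off the window next to the centromere, which holds band 5p11, without peaks.

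Steps between adjoining windows were larger in H3.1-K27M than in H3.1-WT, as on other autosomes. Between adjoining windows the value changed by a mean of 1.01 on the log2 scale in H3.1-K27M and by 0.544 in H3.1-WT, over 66 pairs. The other 20 autosomes had medians of 1.09 and 0.543. The steepest change on chromosome 6 in H3.1-K27M was at 45 Mb on 6p, from 3.68 to 50.2 kb per Mb, a ratio of 13.6 where H3.1-WT rose from 14.5 to 33.5. The next was at 105 Mb on 6q, a fall from 88.7 to 8.54 kb per Mb where H3.1-WT fell from 36.5 to 21.1. On chromosome 5 the steepest changes in H3.1-K27M were the rise at 110 Mb, from 3.96 to 39.3 kb per Mb, and the fall at 170 Mb, from 47.3 to 4.98. In 1 Mb windows the best place for the rise on 5q was at 113 Mb, where the last window before it had 5.53 kb per Mb and the first after it 166. The nearest band edge was 0.1 Mb away, with the light band 5q22.3 on the dense side. The rise on 6p, at 47 Mb, was less steep, from 9.53 to 29.6 kb per Mb. It lay 0.8 Mb from the edge between the light band 6p21.1 and the dark band 6p12.3. The fall on 6q was at 105 Mb, from 165 to 9.98 kb per Mb, 0.5 Mb from the edge between the dark band 6q16.3 and the light band 6q21. The fall on 5q was best placed at 168 Mb, 0.5 Mb from the edge between the dark band 5q34 and the light band 5q35.1. The steepest H3.1-WT steps were best placed 0.1 and 1.6 Mb from an edge on 5p, 1.2 Mb on 6p and 0.5 Mb on 6q. Steps were placed to 1 Mb only, and distances of other places were not measured, so nearness to band edges was not tested.

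Windows of 1 Mb showed that likeness between neighbours faded over a few megabases. Rank correlation between windows 1 Mb apart was 0.469 with H3.1-WT and 0.561 with H3.1-K27M over 348 pairs. At 5 Mb it was 0.235 and 0.256, and at 10 Mb 0.146 and 0.142. On the other autosomes it was 0.399 and 0.498 at 1 Mb and 0.216 and 0.0828 at 10 Mb. These correlations describe windows that share a library and base composition and have no p-value. Of the 100 most covered autosomal windows of 1 Mb, 41 with H3.1-WT and 46 with H3.1-K27M lay on chromosomes 5 and 6, which hold 12.2% of such windows. The chromosomes were chosen by covered length, so nothing is read from these numbers.

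The most covered 1 Mb windows of chromosome 6 lay in 6q12, 6p12.3 and 6q25.2. The window from 69000001 to 70000000 in 6q12 was the most covered of all 2881 autosomal windows in H3.1-WT, with 105 kb in 79 peaks, and had 211 kb in 115 peaks in H3.1-K27M. The window from 50000001 to 51000000 in 6p12.3 had 81.1 kb in H3.1-WT and 247 kb in H3.1-K27M, and that from 65000001 to 66000000 in 6q12 had 70.4 and 239 kb. The window from 153000001 to 154000000 in 6q25.2 had 85.7 and 177 kb. On chromosome 5 the H3.1-WT list led with 15000001 to 16000000 in 5p15.1 (74.2 kb, 95.3 in H3.1-K27M), 140000001 to 141000000 in 5q31.3 (70.8 kb, 27.5 in H3.1-K27M) and 16000001 to 17000000 in 5p15.1 (67.7 kb, 110 in H3.1-K27M). The H3.1-K27M list led with 113000001 to 114000000 in 5q22.3 (166 kb, 39.9 in H3.1-WT), 22000001 to 23000000 in 5p14.3 (163 kb, 58.7) and 166000001 to 167000000 in 5q34 (144.8 kb, 33.8). The window in 5q31.3 was the only one of these that was less covered in H3.1-K27M.

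The 2 genotypes shared the order of the windows but not the size of the contrast. Over the 70 windows of 5 Mb, Spearman's rho between the lists was 0.766 and Pearson's r of the log2 values 0.793. On the other autosomes, with 508 windows, rho was 0.758. By arm rho was 0.915 on 5p (10 windows), 0.836 on 5q (26), 0.790 on 6p (12) and 0.805 on 6q (22). The windows of a list share 1 library, and both lists share the genome's base composition, so these values are descriptions with no p. The SD of the log2 values was 0.695 with H3.1-WT and 1.38 with H3.1-K27M. On chromosome 6 alone it was 0.512 and 1.40. The SD was also higher in H3.1-K27M over the 508 windows of other autosomes, at 1.37 against 1.01 in H3.1-WT.

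The wider range came from both ends. Of the 70 windows, 20 (28.6%) were covered at least 1.5 times more in H3.1-K27M, beside 17.1% of the 554 autosomal windows with H3.1-WT peaks, and 20 (28.6%) at least 1.5 times less, beside 43.9%. On 5p 6 of 10 windows were in the first class and 0 in the second, and on 6p 1 of 12 and 7 of 12. On 5q there were 5 and 8 of 26 windows, and on 6q 8 and 5 of 22. The ratio of covered length over a whole arm, H3.1-K27M over H3.1-WT, was 1.64 on 5p, 1.36 on 6q, 1.19 on 5q and 0.932 on 6p, while the 35 other arms had a median of 0.900 and a range from 0.610 on 15q to 1.52 on 9p. The ratio on 5p was thus above that of every other autosomal arm listed, over all peaks. With only peaks of a −log10 q of 5 or more it was 0.507 on 5p, 0.435 on 5q and 0.398 on 6q, and 5q was at 0.726 from a −log10 q of 2. With the minimum of 5, H3.1-WT peaks were in 65 of the 70 windows. Of these, 3 (4.62%) were at least 1.5 times more covered in H3.1-K27M and 49 (75.4%) at least 1.5 times less, beside 1.98% and 78.2% of 505 autosomal windows.

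**Figure D3:**
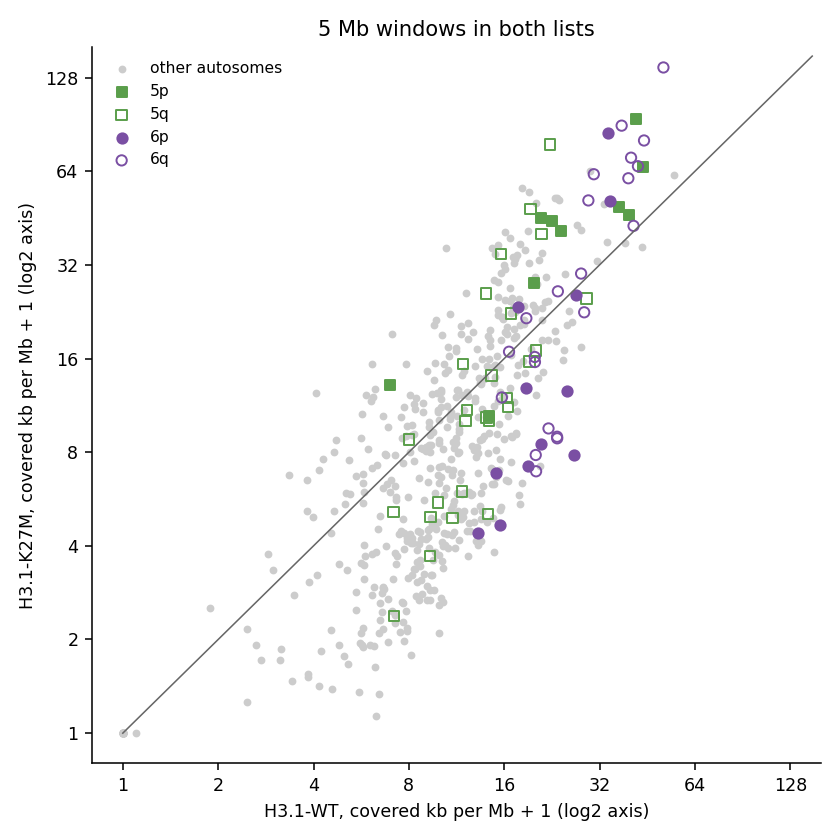
Covered kb per Mb + 1 of each 5 Mb window in the H3.1-WT list (horizontal, log2 axis) and the H3.1-K27M list (vertical, log2 axis). Grey points are windows of other autosomes, green squares chromosome 5 and purple circles chromosome 6, filled for the p arm and open for the q arm, and the line marks equal coverage. The densest windows of both chromosomes lie above the line, and most windows of 6p lie below it.

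Weak peaks were the larger number in dense windows. In dense windows the share of peaks with a −log10 q under 2 was 62.8% for H3.1-WT and 75.7% for H3.1-K27M, in lists whose lowest values were 1.01 and 1.00, against 55.5% and 71.3% in the other windows of chromosomes 5 and 6. Peaks in dense windows were also wider, with a median of 810 against 742 bases in H3.1-WT and 912 against 681 in H3.1-K27M. They stood closer together, with a median gap of 20825 against 53434 bases in H3.1-WT and 9437 bases in the dense windows of H3.1-K27M. Dense windows were chosen by coverage, to which number and width both belong.

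Strong peaks (a −log10 q of 5 or more) also had a higher density in dense windows. Per Mb there were 1.03 in dense and 0.741 in other windows with H3.1-WT, and 0.350 and 0.185 with H3.1-K27M. Chromosome 5 held 148 with H3.1-WT and 49 with H3.1-K27M, and chromosome 6 held 181 and 52. In H3.1-WT they came to 0.930 per Mb on 5p, 0.777 on 5q, 1.03 on 6p and 1.07 on 6q, which ranked 11, 20, 9 and 5 among the 39 arms. In H3.1-K27M the values were 0.372, 0.234, 0.262 and 0.327, with ranks 3, 16, 13 and 6. Over the 70 windows the rank correlation of coverage with the number of strong peaks was 0.376 with H3.1-WT and 0.444 with H3.1-K27M. With the number of peaks that reached a −log10 q of 2 it was 0.834 and 0.948. All these peaks are part of the coverage that chose dense windows, so the densities in dense windows and the correlations are descriptions only.

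The ratio of peak numbers between the genotypes fell as the minimum strength was raised. On 5p it was 1.45 over all peaks (1645 in H3.1-K27M, 1133 in H3.1-WT), 1.03 from a −log10 q of 2 upward (395 and 384), 0.689 at 3 (91 and 132) and 0.400 at 5 (18 and 45). On 6p it was 0.827 over all peaks (951 and 1150), 0.483 at 2, 0.315 at 3 and 0.254 at 5 (16 and 63). At a minimum of 5, 5q had a ratio of 0.301 and 6q 0.305, beside 0.306 on the other 20 autosomes together. A q value depends on the depth of the library, so the strong counts describe the lists.

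**Figure D4:**
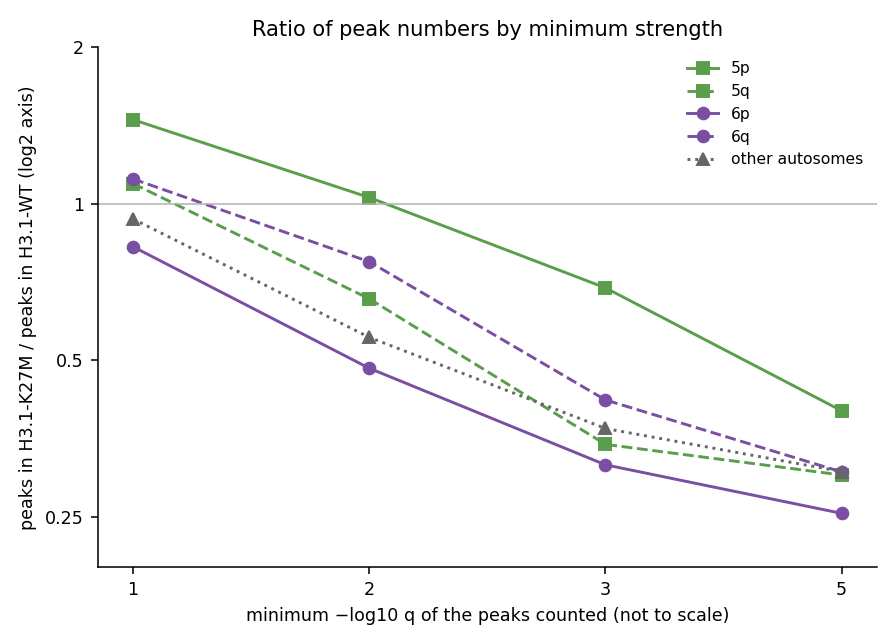
Number of peaks in H3.1-K27M divided by that in H3.1-WT (vertical, log2 axis) when peaks are counted from a minimum −log10 q of 1, 2, 3 or 5 (horizontal, not to scale), for the 4 arms and the other 20 autosomes together. All 5 lines fall with the minimum, and 5p is the highest and 6p the lowest at each of the 4 minimums.

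Peaks of one list were often absent from the other, except strong ones. On chromosomes 5 and 6, 39.4% of H3.1-WT peaks had at least 1 base in common with the H3.1-K27M list (38.3% to 40.6%, 95% Wilson interval), against 33.33% on other autosomes (32.7% to 34.0%). Of the H3.1-K27M peaks, 34.6% did (33.5% to 35.7%), against 35.5% (34.9% to 36.2%). Among strong H3.1-WT peaks 272 of 329 were overlapped (82.7%, 78.2% to 86.4%), and among strong H3.1-K27M peaks 96 of 101 (95.05%, 88.9% to 97.9%). Shares on other autosomes were close to these, at 83.7% of 1695 strong H3.1-WT peaks and 96.5% of 518 strong H3.1-K27M peaks. In H3.1-K27M the dense windows had the lower share, with 32.3% of 6366 peaks overlapped against 51.6% of 835 in other windows. In H3.1-WT the order was reversed, with 41.9% of 5257 peaks against 28.5% of 1173. With both lists held to a −log10 q of 5 or more, the shares were 24.01% for H3.1-WT and 78.2% for H3.1-K27M, and with a reciprocal overlap of 50% over all peaks 14.5% and 13.0%. A share of this kind moves with how much the other list covers there. These intervals hold for counting error alone, with each peak taken as independent.

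The 3 widest H3.1-K27M peaks of each chromosome lay in dense windows, as did 88.1% of all H3.1-K27M peaks on the 2 chromosomes. Width is part of the coverage that chose dense windows, so nothing is read from this. On chromosome 6 they were in 6q12, at 63542118 to 63568228 (hg19; 26111 bases, fold enrichment 4.36), again in 6q12, at 65306236 to 65328967 (22732 bases, 4.16), and in 6q22.31, at 123337607 to 123356940 (19334 bases, 3.59). Fold enrichment is the authors' value, a linear ratio to the background level that their caller estimated. These 3 peaks were below the strong class, with −log10 q values of 3.53, 3.16 and 2.11, and the H3.1-WT list covered 21743, 3266 and 2781 of their bases. On chromosome 5 the widest H3.1-K27M peaks were in 5p15.1, at 16165424 to 16185968 (20545 bases, fold enrichment 7.85), in 5p14.3, at 21893107 to 21909528 (16422 bases, 3.74), and in 5q32, at 148025518 to 148041919 (16402 bases, 5.01). The widest H3.1-WT peaks were narrower, from 9083 to 10018 bases on chromosome 5 and from 13309 to 14186 bases on chromosome 6. The 2 widest of chromosome 6 in H3.1-WT both lay in 6q22.1, at 117581816 to 117596001 and 117191397 to 117205319, with fold enrichments of 9.95 and 7.41 and 12647 and 7566 bases covered in H3.1-K27M.

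The peaks of highest fold enrichment were found in both lists. On chromosome 5 the leading peak was the same site in both, in 5q22.3 at 113693866 to 113703883 in H3.1-WT (10018 bases, fold enrichment 17.4, −log10 q 48.9) and at 113694002 to 113703844 in H3.1-K27M (9843 bases, 12.2, −log10 q 27.8). It ranked 9 of all H3.1-WT peaks and 3 of all H3.1-K27M peaks by fold. A peak in 5p12, at 44383075 to 44395494, had a fold enrichment of 8.39 with H3.1-K27M and 9.0 with H3.1-WT, and one in 5p15.33, at 1881612 to 1884759, had 8.35 where the highest overlapping H3.1-WT peak had 14.5. The band 5p15.33 holds IRX1, IRX2 and IRX4, homeobox genes of the Iroquois family. In H3.1-WT the next peaks lay in 5q13.3 (75375746 to 75383958, fold enrichment 15.2) and 5p13.3 (32707510 to 32716203, 14.7), and the overlapping H3.1-K27M peaks had 5.84 and 8.27.

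On chromosome 6 the leading peaks differed between the lists. In H3.1-WT they lay in 6p25.3 (1309319 to 1316860, fold enrichment 15.328), 6q22.33 (127436813 to 127443063, 14.4) and 6q16.3 (101840073 to 101843282, 12.03), and the overlapping H3.1-K27M peaks had 6.77, 5.795 and 4.63. The band 6p25.3 holds the forkhead genes FOXC1, FOXF2 and FOXQ1. In H3.1-K27M they lay in 6p12.3, at 50675194 to 50686939 (fold enrichment 9.09, 11.2 in H3.1-WT) and 50781532 to 50792342 (7.80, 7.57 in H3.1-WT), and in 6q14.1, at 78169550 to 78177861 (8.24, 9.37 in H3.1-WT). The band 6p12.3 holds TFAP2B and TFAP2D, AP-2 transcription factor genes of neural crest and brain. Fold enrichments of separate lists depend on each library, so these pairs are set side by side without a comparison. No hg19 gene annotation was used here, so peaks were placed in bands and not assigned to genes.

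A set of 20 bands that hold developmental regulators or large gene clusters was examined as a group, with their location taken from general knowledge. Of these 20 bands, 15 were less covered in H3.1-K27M and 5 more covered, with a median ratio of 0.471, while among the 69 other bands outside the centromeres 38 were less and 31 more covered, with a median of 0.889. Together they had 21.5 kb per Mb in H3.1-WT, beside 21.2 in the other bands, and 24.2 against 28.5 in H3.1-K27M. They held 111 strong H3.1-WT peaks (1.33 per Mb, 0.824 in other bands) and 29 strong H3.1-K27M peaks (0.348 and 0.273 per Mb). The bands were chosen for their genes and hold many others.

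The listed bands that were more covered in H3.1-K27M were mostly dark bands within the dense blocks. Band 6p12.3 had 41.1 kb per Mb with H3.1-WT and 102 with H3.1-K27M. Band 6q16.3, which holds SIM1, a regulator of hypothalamic neurons, had 33.5 and 88.9, and 6q16.1, which holds the neural POU factor gene POU3F2, had 26.2 and 42.0. The other 2 were the light bands 5q33.3 (EBF1, a B cell regulator; 12.1 and 14.7) and 5p15.33 (37.6 and 38.9).

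Among the 15 that were less covered, the ratios ran from 0.191 in 5q14.1, which holds the hypothalamic homeobox gene OTP (10.7 and 2.04 kb per Mb), to 0.933 in 6q27, which holds TBXT and DLL1 (15.2 and 14.2). The histone cluster bands 6p22.2 and 6p22.1 had 29.1 and 24.4 kb per Mb with H3.1-WT and 10.2 and 7.07 in H3.1-K27M. The bands of the major histocompatibility complex, 6p21.33 and 6p21.32, had 15.9 and 24.4 against 5.32 and 7.596. The protocadherin band 5q31.3 had 28.2 and 22.4, with 10 strong peaks with H3.1-WT and 3 with H3.1-K27M. The remaining bands of these 15 hold transcription factor genes, and their common direction comes from this sorting. Band 5q15 (NR2F1) had 15.2 and 8.46 kb per Mb, 5q31.1 (PITX1) 12.6 and 7.97, and 5q35.1 (NKX2-5, TLX3) 9.69 and 3.65. The values were 11.3 and 6.05 in 5q35.2 (MSX2), 23.7 and 9.04 in 6p25.3, and 18.4 and 5.38 in 6p24.3 (TFAP2A). They were 18.0 and 5.76 in 6q23.2 (TCF21, EYA4) and 22.5 and 9.15 in 6q23.3 (OLIG3).

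Giemsa stain was set beside the coverage, since dark bands are AT-rich and poor in genes. If each stain class had the density it has on the other 20 autosomes, chromosome 5 would have 10.7 kb per Mb with H3.1-WT and 10.8 with H3.1-K27M, and chromosome 6 would have 10.7 and 10.9. The measured values were 1.59 and 2.17 times these on chromosome 5 and 2.37 and 2.87 times on chromosome 6. By arm the quotients were 2.49 and 4.43 on 5p, 1.26 and 1.44 on 5q, 1.97 and 1.89 on 6p, and 2.59 and 3.38 on 6q. The darkest bands of chromosome 6 had 35.096 kb per Mb with H3.1-WT and 72.1 with H3.1-K27M, against 10.4 and 16.7 on the other 20 autosomes, and its light bands had 21.5 and 16.7 against 10.9 and 7.72. On chromosome 5 the darkest bands had 16.303 and 34.4 kb per Mb and the light bands 18.5 and 21.6. Over the 70 windows, a division into those mostly in the darker 2 stain classes and the rest held 1.66% of the variance with H3.1-WT and 9.56% with H3.1-K27M.

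Fold enrichment at a matched p-value was among the lowest of the 39 arms on both arms of chromosome 6, and nearer the median on 5p. Among peaks with a −log10 p from 3.6 to 4.0, the median fold was 3.14 on 6p and 3.17 on 6q in H3.1-WT, ranks 1 and 3 from the lowest of 39 arms, and 3.16 and 3.18 in H3.1-K27M, ranks 1 and 2. The other 35 arms lay between 3.16 and 3.28 in H3.1-WT, with a median of 3.24, and between 3.18 and 3.30 in H3.1-K27M, with a median of 3.26. Arm 5p had 3.22 and 3.23, ranks 12 and 8, and 5q had 3.23 and 3.26, ranks 14 and 27. In a Poisson model of read counts, the same p goes with a lower fold where more reads are expected. On 6p the value was low in dense windows (3.14 for H3.1-WT, 3.17 for H3.1-K27M) and in the rest (3.104 and 3.098). Across the 39 arms the rank correlation of this fold with coverage was −0.574 with H3.1-WT and −0.451 with H3.1-K27M, over arms that share 1 library per list. The part of the expected read number in the coverage of these chromosomes was not tested, and chromosome copy number in these cells was not measured here.

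**Figure D5:**
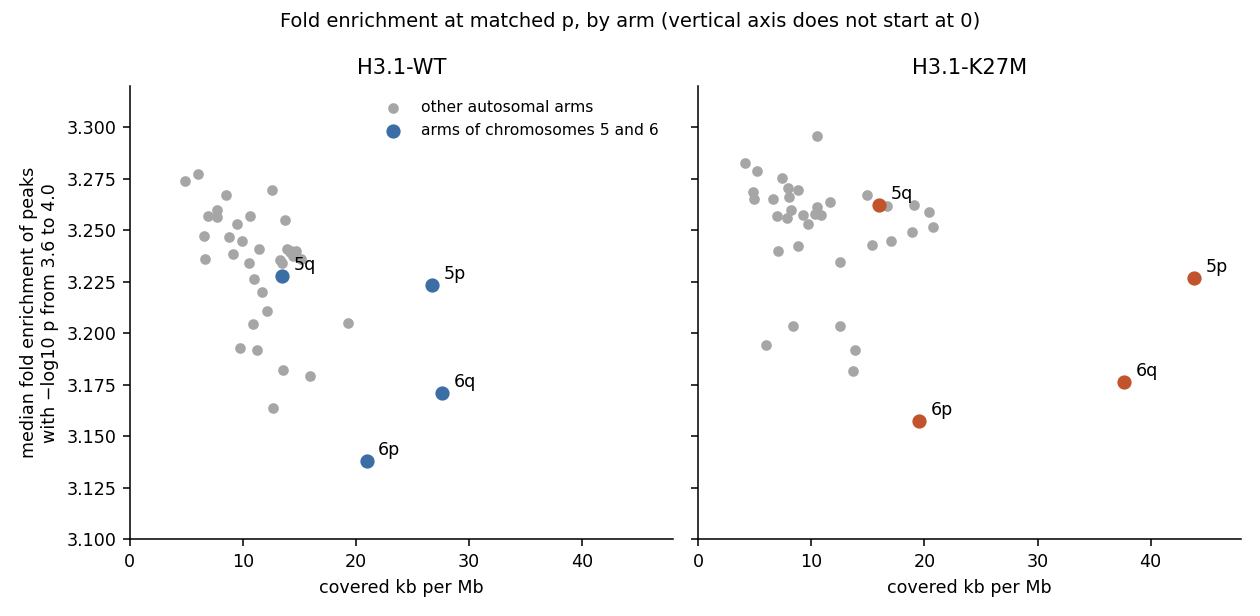
Median fold enrichment of peaks with a −log10 p from 3.6 to 4.0 (vertical axis, which does not start at 0) against covered kb per Mb (horizontal axis) for 39 autosomal arms in the H3.1-WT list (left) and the H3.1-K27M list (right). Coloured points are 5p, 5q, 6p and 6q and grey points the other 35 arms. Arm 6p is the lowest in both lists. Arm 6q ranks 3 from the lowest in H3.1-WT, where 17p is also below it, and 2 in H3.1-K27M. Arm 5p has high coverage at a fold of 3.22 and 3.23.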

How the data were processed

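The data were 2 lists of broad EZH2 peaks, whose peak names in the deposited files give 1 EZH2 and 1 HRP library of the same genotype, so the calls were not made on pooled samples. MACS2, Bowtie2 2.3.5.1, deepTools, Picard and cutadapt are named, with hg19, in the submitters' processing notes, which give no parameters. The authors deposited for each peak a fold enrichment (a linear ratio), a −log10 p, a −log10 q and a score that is about 10 times the −log10 q, as a whole number. The score was not used. Depth is unknown, and no filter for repeats or poorly mapped sequence was applied here.

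Covered length was the number of bases in peaks, peaks were assigned to windows, arms and bands by midpoint, and 0 peaks ended past an hg19 chromosome end. Windows of 5 Mb started at base 1 and were split at the border of the arms, and pieces under 2.5 Mb were left out of window values (4 pieces, with 31 H3.1-WT and 24 H3.1-K27M peaks). Bands came from circlize 0.4.16. Coverage, overlap and joining were checked on 6000 simulated peaks, with 0 disagreements with bedtools 2.31.1. The tools were R 4.3.3 and Python 3.11.15 with matplotlib 3.10.9, scipy 1.17.1, pandas 2.3.3 and numpy 2.4.6.

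Named regions were, per chromosome and list, the 3 most and least covered 5 Mb windows, the 3 most covered 1 Mb windows, the 3 widest peaks, the 3 of highest fold, the 2 steepest steps, and 20 bands. The 23 gene symbols named for bands were found on the stated chromosome in RefSeq, whose GRCh38 coordinates were not used. The chromosomes, windows and lists were chosen with earlier results of these data known. The fold at matched p and the steps in 1 Mb windows were added after seeing the data. With 1 library per group no test was made.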

Additional observations from a re-analysis of the deposited data

How the results depend on the processing

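Each alternative was applied to the values it can change: all 29 for filtered or joined peaks, fewer for window, overlap or threshold settings. A ratio was counted as moved past 1.5 times, a share outside its 95% Wilson interval, a variance share by over 10 percentage points and a correlation by over 0.1. Of 235 recomputed values 193 were not moved, 37 moved and 5 reversed. Counting peaks per Mb and leaving out centromeric and variable bands moved 0 of 27 values each, shifting windows by 2.5 Mb 0 of 11, and taking the median without chromosomes 5 and 6 0 of 2.

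A −log10 q of at least 5 moved the most. In H3.1-K27M the density relative to autosomes was then 1.21 on chromosome 5 and 1.31 on chromosome 6, the values over the stain expectation 1.22 and 1.38, and the p over q ratio of chromosome 5 1.69. The H3.1-WT densities relative to autosomes were lower too, at 1.16 and 1.54, but had not moved past 1.5 times. The variance between arms was 9.11% with H3.1-WT and 4.93% with H3.1-K27M, and dense H3.1-WT windows were 54.3%. The correlation between genotypes was 0.632 at that minimum, 0.659 at 2 and 0.656 with equal list lengths (the top 15538 peaks of each). Windows higher in H3.1-K27M were 14.3% at 2 and 4.62% at 5, and lower ones 51.4% and 75.4%, and 44.3% in 2.5 Mb windows. The arm ratio H3.1-K27M over H3.1-WT reversed at 5 to 0.507 on 5p, 0.435 on 5q and 0.398 on 6q, at 2 to 0.726 on 5q, and with peaks within 5000 bases joined to 1.01 on 6p. With a fold of at least the pooled median, 3.36, the variance between arms in H3.1-WT was 25.4%, and dense H3.1-WT windows at 2 times the median were 42.9%.

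Shares of H3.1-WT peaks overlapped were 30.1% at 2, 24.01% at 5, 32.3% with the fold minimum, 36.7% with equal lengths, 43.04% joined and 14.5% with a reciprocal overlap of 50%. For H3.1-K27M peaks they were 41.9%, 78.2%, 30.5%, 44.04% joined and 13.0% reciprocal. Fewer peaks remain under the minimums. Otherwise the cause was not tested. No paired analysis was possible because there was 1 library per group. How many and how strong the peaks are depends on depth, which is unknown.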
